A study of Drosophila melanogaster with 2 samples.

Results

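The Toll pathway genes described here are 10 genes of *Drosophila melanogaster*, taken by symbol from the gene annotation: the recognition protein gene GNBP3, the receptor gene Tl (Toll), the adaptor genes Myd88 and tub, the kinase genes pll and Gprk2, the pelle partner gene Pli, the inhibitor gene cact, and the transcription factor genes dl and Dif. They are 10 of the 13945 protein-coding genes on the main chromosome arms. The measurement was ChIP-seq for Rel, the NF-κB factor of the Imd immune pathway, in whole wandering larvae of a line named Rel-GFP. Males and females were pooled, Rel carried GFP at its C terminus, and chromatin was pulled down with an antibody against GFP. There was 1 group with 2 biological replicates, numbered 2 and 3. The labels name no infection, no other genotype and no untagged strain, and the promoter that drives the tagged gene is not given in the sources used here, so no comparison between conditions was made. Whole larvae mix many tissues, and a peak does not say which of them it came from.

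In the Toll pathway, fungal cell wall sugars are recognised outside the cell by GNBP3, and a protease cascade then cleaves the ligand Spätzle. Spätzle activates the receptor Toll, which signals through the adaptors Myd88 and Tube to the kinase Pelle. Cactus, the IκB of this pathway, is then degraded, and Dorsal and Dif, 2 NF-κB factors, enter the nucleus. Rel acts in the parallel Imd pathway. The peaks below are regions pulled down through the tag of this NF-κB factor, in or near genes of the pathway that controls the others.

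The data are lists of regions ordered by the peak caller's signal value, a value relative to a control. There were 3 relaxed lists of 30000 regions, from replicate 2, from replicate 3 and from their reads combined (the pooled list). The authors also gave the 2133 peaks kept after the irreproducible discovery rate (IDR) procedure, whose signal values ran from 72.5 to 674. Signal values are set on a scale of their own in each list, so regions were compared between lists only by rank, with rank 1 the strongest. The lists hold no read counts and the depth of the libraries is unknown.

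A gene was counted when an IDR summit, the highest point of a peak, fell within its body or the 1000 bp before its start. By this rule 6 of the 10 genes held a summit, namely GNBP3, Myd88, Pli, Gprk2, cact and Dif, while 10.6% of all protein-coding genes did. Tl, tub, pll and dl held none. Long genes hold summits more often. Of genes of at least 10000 bp, 32.8% were counted, against 4 of the 6 such Toll pathway genes (Gprk2, Pli, cact and Dif). Of shorter genes 6.99% were counted, against 2 of 4 (GNBP3 and Myd88). The 10 genes were picked with earlier results of these data known, and no test was made on these counts.

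The 6 genes held 9 summits, 4 of them in Pli and 1 in each of the others. Of all genes with a summit, 74.5% had 1 and 6.06% had 4 or more. Of the 9 summits, 5 lay within 500 bp of a transcription start site (TSS), and of all 2133 summits 41.6% did. DNA in or around the strongest peaks of 5 of these genes is printed here. It is from the RefSeq copy of the reference genome (build dm6), on the strand of the gene and 5′ to 3′. No stretch below includes an annotated exon.

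The first stretch is the intron of PNPase that holds the Gprk2 summit (chr3R:31404605-31404652), with the summit base in capitals. The second is the end of the same peak towards Gprk2 (chr3R:31404741-31404799). The bases between these stretches, which include PNPase exon sequence, are left out. For GNBP3 (chr3L:8954712-8954912) the capitals mark the deposited region.
Gprk2, summit: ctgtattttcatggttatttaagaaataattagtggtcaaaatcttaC
Gprk2, upstream part: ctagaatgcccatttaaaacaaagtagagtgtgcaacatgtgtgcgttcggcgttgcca
GNBP3: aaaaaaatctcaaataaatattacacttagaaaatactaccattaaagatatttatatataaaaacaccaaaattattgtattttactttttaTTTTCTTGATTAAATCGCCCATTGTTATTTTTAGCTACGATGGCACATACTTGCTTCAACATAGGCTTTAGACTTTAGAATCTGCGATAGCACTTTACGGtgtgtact

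For Pli (chr3R:23886316-23886516) capitals mark the string TGATAA, of the kind bound by zinc finger factors of the gut and fat body, which is printed here from the opposite strand as TTATCA. For cact (chr2L:16325741-16325941) they mark the 21 bases centred on the summit. For Dif (chr2L:17428200-17428328) they mark CAGCTG, an E-box string of the kind bound by basic helix-loop-helix factors. The Dif stretch is the part of the peak just upstream of an internal start site. It leaves out the summit, and its CAGCTG lies more than 100 bp from that summit.
Pli: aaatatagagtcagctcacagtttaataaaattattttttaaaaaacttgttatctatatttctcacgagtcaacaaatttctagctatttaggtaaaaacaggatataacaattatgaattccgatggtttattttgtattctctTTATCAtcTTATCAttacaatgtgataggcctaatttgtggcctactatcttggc
cact: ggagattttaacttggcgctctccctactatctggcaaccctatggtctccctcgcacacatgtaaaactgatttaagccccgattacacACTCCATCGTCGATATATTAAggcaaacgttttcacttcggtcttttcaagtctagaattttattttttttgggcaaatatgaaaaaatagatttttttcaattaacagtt
Dif: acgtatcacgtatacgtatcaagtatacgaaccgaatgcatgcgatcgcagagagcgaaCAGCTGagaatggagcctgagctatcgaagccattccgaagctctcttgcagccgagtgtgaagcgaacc

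None of the 9 summits had a match within 100 bp to either of 2 kB strings, the kind of site that NF-κB factors bind. Both strands were searched for the broad kB string, GGGRNNYYCC, and for GGGANTCNC. R is A or G, Y is C or T, and N is any base. Other forms of kB site were not searched. Over all IDR summits these were in 0.938% and 0.75% of such windows. GAGAGAG, the repeat bound by Trl, and the repeat CACACACA were likewise in no window of these genes, where 11.1% and 9.38% of all windows held them. TATCGATA (the DRE element) and GGTCACAC (part of core promoter Motif 1) were also in none, against 0.938% and 0.516% of all windows. TGATAA was found at 1 summit, the strongest of Pli, which held it at 2 places, and CAGCTG at 1, that of Myd88. Of all windows, 16% held TGATAA and 9.42% held CAGCTG. Each string was counted on its own, and a match of GGTCACAC can overlap one of CACACACA, as can matches of both kB strings. Absence of a match says only that these letters are not in the window. With windows of 200 bp either side, TGATAA was found at 4 summits (GNBP3, 2 of Pli, cact; 27.6% of all such windows) and CAGCTG at 4 (Pli, cact, Myd88, Dif; 21%). Both kB strings were at 0 in these windows too, where 1.88% (broad kB) and 1.97% (GGGANTCNC) of all windows held them. They were also at 0 in the whole deposited regions, against 1.88% and 1.83% of all regions.

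The DNA at the summit of GNBP3 and at 2 of the 4 Pli summits was rich in A and T. GC content in the 201 bp around the summit was 26.9% at GNBP3 and ran from 27.9% to 36.8% over the 4 Pli summits. It was 36.8% at cact, 38.8% at Gprk2, 44.3% at Dif and 52.2% at Myd88. The median over all 2133 windows was 38.3%, with quartiles at 33.3% and 44.8%. The Toll pathway windows thus ran from below the lower quartile (GNBP3 and 2 of Pli) to above the upper one (Myd88).

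GNBP3 (FBgn0040321, chr3L:8955021-8956551) encodes a β-glucan recognition protein that starts the Toll response to fungi. Its peak ranked 154 of 2133 (chr3L:8954805-8954904, signal value 201). In the replicate lists the nearest region ranked 262 in replicate 2 and 89 in replicate 3, so both libraries placed it among their strongest. The deposited region is 100 bp wide, and only 5 IDR regions were that narrow, while 91.4% were 396 bp. The summit lies near the left end of that region, 209 bp upstream of the single annotated start of GNBP3. The replicate summits lay 86 bp (replicate 2) and 40 bp (replicate 3) away, nearer to the gene. The same summit lies upstream of orb2, an RNA-binding protein gene of memory formation transcribed the other way, 349 bp from its start, and 540 bp from that of CG43783. It therefore counts for 3 genes, and the data do not say which of them it belongs to. GNBP3 itself, 1531 bp long, had no other region in any of the 3 relaxed lists.

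Tl (FBgn0262473, chr3R:26799041-26842403) encodes the receptor and held no IDR summit over its 43363 bp or the 1000 bp before it. The pooled list had 10 regions there, the best at rank 7624. The best ranked 10922 in replicate 2 and 5236 in replicate 3, where 4 and 18 regions were listed. The nearest IDR summit lay 83.7 kb away, at amon, and 85.3% of the 12460 genes without a summit had one closer. Without replicate 2 that distance was 44104 bp. Tl was the Toll pathway gene farthest from an IDR summit. Its relaxed regions in the pooled list were at 2.25 per 10 kb, near the median of 2.49 for genes of at least 10000 bp. The other Toll pathway genes of that length had from 3.83 (Dif) to 5.83 (Pli), with dl at 4.13.

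Myd88 (FBgn0033402, chr2R:9302823-9308722), the adaptor that binds the receptor's cytoplasmic TIR domain, had a summit ranked 1267 (chr2R:9308442-9308837, signal value 92.4). It lay 82 bp downstream of the first start site, in the 5′ UTR. The replicates differed most here. The nearest region ranked 743 in replicate 2 and 7444 in replicate 3. Only 61 of the 2133 IDR peaks (2.86%) had a nearest region with a worse rank in replicate 3. When the 2133 strongest regions of replicate 3 alone were used, Myd88 was not counted. A weaker region near the 3′ end, 5036 bp from the nearest start, ranked 4489 in the pooled list.

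The genes for the next steps, tub (FBgn0003882, chr3R:4387742-4389813) and pll (FBgn0010441, chr3R:27251131-27253182), are short and held no IDR summit. Tube is the adaptor that joins Myd88 to Pelle, and Pelle is the kinase of the complex. The pooled list had no region at all at either gene, as at 47.2% of all genes. Replicate 2 alone had regions at tub, the best at rank 2491 and 401 bp upstream of the start. At pll both replicates had a region at the promoter, ranked 2779 in replicate 2 (45 bp upstream) and 4883 in replicate 3 (64 bp upstream). Of 1546 genes with regions ranked at least that high in both replicates, 32 (2.07%) had no region in the pooled list, pll among them. The nearest IDR summit was 5.52 kb from tub and 6.07 kb from pll, the latter at CG18766. These distances are shorter than for most genes without a summit, of which 16.7% and 18.1% had a closer one.

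**Figure D1:**
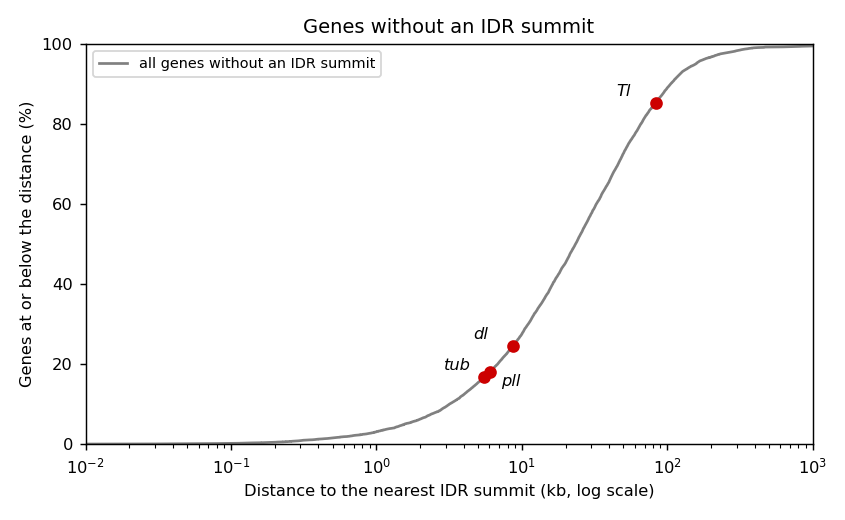
Distance in kb (log scale) from a gene and its 1000 bp upstream to the nearest IDR summit, for all 12460 genes without one (grey line, cumulative share) and the 4 Toll pathway genes among them (red). tub, pll and dl lie between 5.52 and 8.70 kb, under the median of 23.4 kb, and Tl lies at 83.7 kb.

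Pli (Pellino, FBgn0025574, chr3R:23860162-23890052), which binds Pelle and is a RING-type ubiquitin ligase, held the most summits. All 4 lay in intron 2 of both annotated transcripts, which is 23401 bp long, and not at the promoter. The strongest ranked 405 (chr3R:23886218-23886613, signal value 146), 3636 bp downstream of the start. The second ranked 463 (chr3R:23888633-23889028, signal value 140), 1221 bp downstream. The third ranked 629 (chr3R:23887038-23887433, signal value 124), at 2816 bp, so these 3 fall within 2415 bp of each other. The fourth stood apart at 15630 bp and ranked 1205 (signal value 94.5).

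The order of the Pli summits was not the same in the replicates. The summit at 1221 bp ranked 553 in replicate 2 and 543 in replicate 3, nearly alike. The strongest ranked 303 in replicate 2, while its nearest region in replicate 3 ranked 1984. A second replicate 3 region that overlaps the same peak ranked 650. The summit at 2816 bp ranked 1171 and 446, and the one at 15630 bp 2088 and 1241. All 4 were within the first 2133 regions of both replicates.

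Gprk2 (FBgn0261988, chr3R:31405245-31457873), a G protein-coupled receptor kinase with reported roles in Toll and Hedgehog signalling, had the highest-ranked summit of the 10 genes (rank 7, chr3R:31404534-31404799, signal value 484). It ranked 9 in replicate 2 and 4 in replicate 3, with summits 15 and 27 bp from the pooled one. It lies 593 bp upstream of the start of Gprk2, and 84 bp from the nearest start of PNPase, which encodes a mitochondrial RNA exonuclease and runs the other way. The longest PNPase transcript begins inside Gprk2, so the 2 genes overlap head to head. When each summit was given to the nearest start site, it went to PNPase and Gprk2 was not counted. The 52629 bp body of Gprk2 held no IDR summit. The pooled list had 20 further regions over the gene and the 1000 bp before it, the best at rank 5536.

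cact (FBgn0000250, chr2L:16313036-16326207) encodes Cactus, which holds Dorsal and Dif in the cytoplasm. Its summit ranked 781 (chr2L:16325643-16326038, signal value 113), 868 in replicate 2 and 936 in replicate 3. The ranks were close in all 3 lists. It lies in the first intron of 2 transcripts, 366 bp downstream of the outermost start, and 216 bp upstream of an internal start used by others, so it sits between alternative promoters. A second pooled region, 338 bp downstream of a start, ranked 2399 (signal value 68.3), just outside the IDR list. It ranked 1830 in replicate 2 and 3778 in replicate 3.

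Dif (FBgn0011274, chr2L:17413248-17433161) and dl (FBgn0260632, chr2L:17436830-17450364) encode the NF-κB factors themselves and are neighbours on 2L in the same orientation, 3668 bp apart. Dif acts in the larval and adult immune response, and Dorsal also patterns the embryo. The Dif summit ranked 1265 (chr2L:17427933-17428328, signal value 92.4), 1127 in replicate 2 and 2295 in replicate 3. It lay 68 bp downstream of the internal start, in the 5′ UTR of 3 transcripts, and 5030 bp downstream of the outer start, in the first intron of the other transcript. Between both starts, the pooled list had further regions at ranks 2902 and 3843. Near the second of these, replicate 3 had its best Dif region, at rank 1490.

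dl held no IDR summit, but came nearest to it among the 4 without one. Its best pooled region ranked 2441 (signal value 67.7, chr2L:17450545-17450940), 379 bp upstream of the outer start. The lowest IDR signal value was 72.5, so dl fell just outside, and Dif and Myd88 at 92.4 were the weakest genes inside. The same region ranked 4694 in replicate 2, whose best dl region, at 105 bp upstream, ranked 2794. In replicate 3 a region 320 bp upstream ranked 1330. The closest IDR summit to dl is that of Dif, 8.70 kb away.

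**Figure D2:**
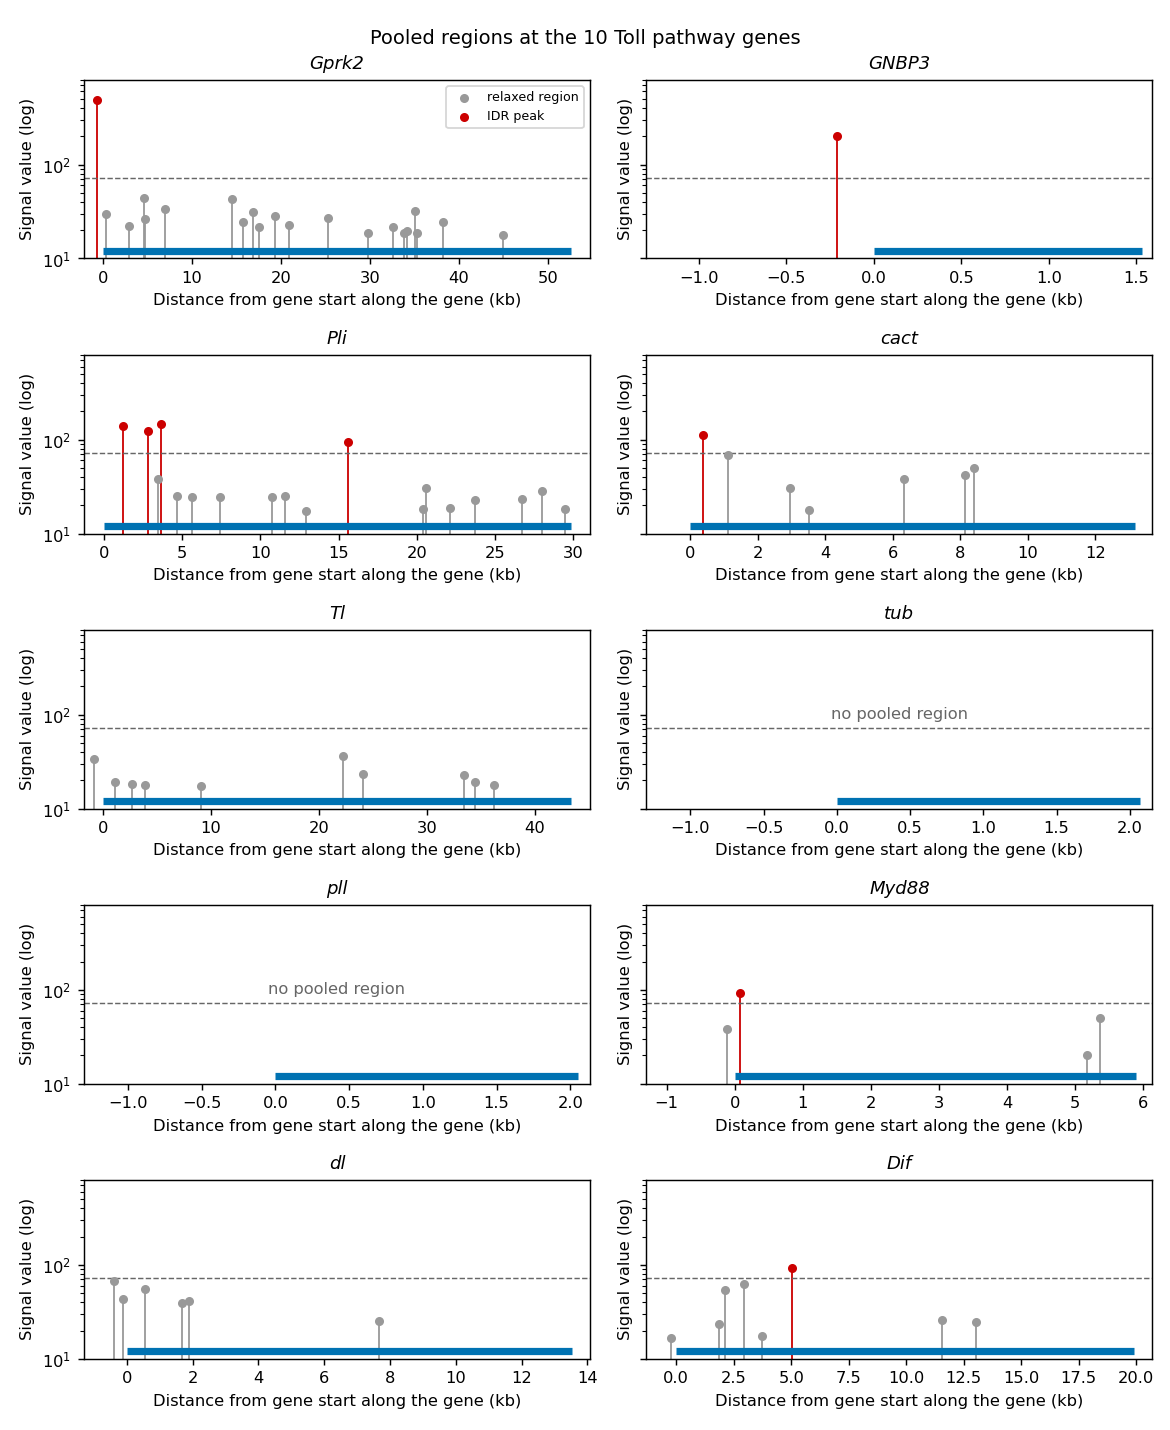
Regions of the pooled list at each of the 10 genes: distance of the summit from the start of the gene along its strand (kb) against the authors' signal value (log scale). Blue bars are genes, red points IDR peaks, grey points other relaxed regions, and the dashed line the lowest IDR signal value, 72.5. Gprk2 has 1 strong peak before the gene, Pli has 4 peaks inside it, dl lies just under the line, and tub and pll have no pooled region.

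Most of the 9 summits had their nearest region within the first 2133 of both replicate lists. All 9 had their nearest region within the first 2133 of replicate 2, and 7 of 9 within those of replicate 3. Myd88 and Dif were the exceptions. Of all IDR peaks, 77.4% met this in replicate 2, 73.9% in replicate 3 and 55.9% in both, where 7 of the 9 did. The 4 summits of Pli are among these 7. The median distance from the pooled summit to the replicate summit was 16 bp in replicate 2 and 26 bp in replicate 3, against 9 and 18 bp over all IDR peaks. Since the IDR list is ranked on the reads of both replicates pooled, these ranks are not independent of it.

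**Figure D3:**
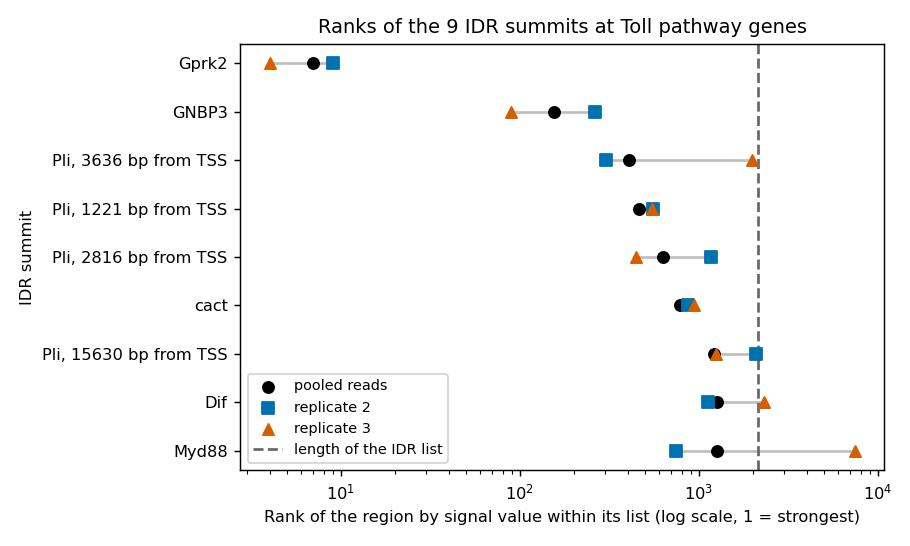
Rank of each of the 9 IDR summits (log scale, 1 is the strongest) in the pooled list, and of the nearest region in each replicate list. The dashed line is the length of the IDR list, 2133. The markers of cact lie close together, and only Dif (2295) and Myd88 (7444) pass the line, both in replicate 3.

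**Figure D4:**
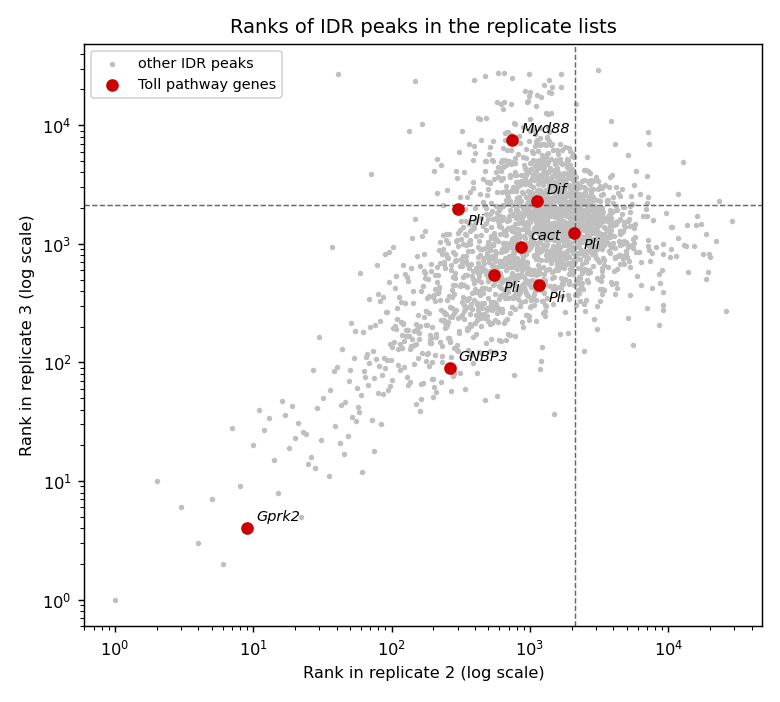
Rank in replicate 2 against rank in replicate 3 (log scales) of the nearest region to each of the 2133 IDR peaks, with the 9 at Toll pathway genes in red. Gprk2 (9 and 4) lies near the corner of strongest ranks, and Myd88 (743 and 7444) lies above the main cloud.

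The number of genes counted was 6 with either replicate list alone and ran from 4 to 7 over all alternatives. Which genes were counted changed too. With the top 2133 of replicate 3 alone, 6 of the 10 genes were counted (10.6% of all genes), with dl in place of Myd88. Dif was counted there through its region at rank 1490, since the region at its IDR summit ranked 2295. With those of replicate 2 alone, the same 6 as in the IDR list were counted (10.8% of all genes). Among the 1066 strongest IDR peaks, 4 were (GNBP3, Pli, Gprk2 and cact; 6.08% of all genes). Among the 4236 pooled regions whose q value was below 0.05, 7 were, dl being the addition (17.5%). With summits inside the gene only, GNBP3 and Gprk2 were lost, which left 4 (6.48%). With 2000 bp upstream 6 were counted (11.9% of all genes), as with any base of the region in place of its summit (11%). With each summit given to its nearest start site, 5 were (10%), without Gprk2.

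Of 52 other genes of the wider pathway, listed by role, 4 (7.69%) had an IDR summit, a share near the 10.6% of all protein-coding genes. By length, 3 of the 45 under 10000 bp were counted (6.99% of all such genes) and 1 of the 7 longer ones (32.8%). In the IDR list none of the 18 genes for steps before the ligand, mostly recognition, protease and inhibitor genes, had a summit. With replicate 3 alone, GNBP1, a recognition protein gene, and Spn27A, a serpin gene, were counted, though the pooled list had no region at either. None of the 5 Spätzle family ligand genes had an IDR summit, though spz3 was counted with replicate 2 alone and with the pooled regions of q under 0.05. Among 7 other Toll family receptor genes, Toll-7 had a summit 129 bp upstream of its start, ranked 1619 (3993 in replicate 2 and 1011 in replicate 3). Among 14 partners and regulators, Uba2, a subunit of the SUMO-activating enzyme, had one 84 bp upstream, ranked 354 (561 and 376). Of 8 targets of Dorsal in the embryo, 2 had summits. They were sog, an inhibitor of Dpp, in the gene at rank 484 (1007 and 558), and brk, a repressor of Dpp targets, with 2 summits upstream, the better at rank 1883. With summits inside genes only, 1 of the 52 was counted (1.92%, against 6.48% of all genes), and with the pooled regions of q under 0.05, 9 were (17.3%, against 17.5%).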

How the data were processed

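ChIP-seq of Rel-GFP in whole wandering larvae was deposited as narrowPeak lists for replicates 2 and 3. Per the labels, chromatin was sonicated to 200 to 800 bp. Per the notes deposited by the authors with the files, the relaxed lists were called against a control alignment, which was not analysed here, and the IDR list was derived from both replicate lists and the pooled list. The authors deposited a signal value and a −log10 q value for each region. Lists on dm6 were used and those on dm3 were not. Which aligner and peak caller made them is not given in the sources used here.

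Genes and start sites came from Ensembl release 115 (BDGP6.54), which is on dm6 coordinates. Coordinates count from 1, and a summit is the start plus the deposited offset. A region was matched to each replicate list by the nearest summit. Motif strings were searched on both strands, 100 bp either side of summits. The assignment and string search were tested on simulated data. The 10 genes, the list of 52 and the strings were chosen with earlier results of these data known. Of the list of 52, every gene with an IDR summit was named, up to 12, together with genes sharing a summit with the 10; amon, CG18766, GNBP1, Spn27A and spz3 were named after their values were seen. The split of genes at 10000 bp and the search for genes like pll were also chosen after values were seen. With 1 group and 2 replicates no test was made. Python 3.11.15, numpy 2.4.6, pandas 2.3.3 and matplotlib 3.10.9 were used.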

Additional observations from a re-analysis of the deposited data

How the results depend on the processing

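The count of 6 of the 10 genes stayed between 4 and 7 under 8 alternatives, over which the share of all genes ran from 6.08% to 17.5%. The count was 6 without replicate 2 (10.6% of all genes) or without replicate 3 (10.8%). It was 5 with the nearest start site (10%), and 6 with 2000 bp upstream (11.9%) or with any base of the region (11%). The 52 other genes, with 4 counted, gave 2 among the 1066 strongest peaks (3.85%, against 6.08% of all genes), 9 with q under 0.05 (17.3% against 17.5%), 1 with summits inside genes only (1.92% against 6.48%) and 7 with the nearest start site (13.5% against 10%), and 5 to 6 with 1 replicate left out (9.62% against 10.8%, and 11.5% against 10.6%). Ranks of the region nearest to the strongest IDR summit, with 1 replicate left out, ran from 4 to 9 for Gprk2, 89 to 262 for GNBP3, 303 to 1984 for Pli, 868 to 936 for cact, 743 to 7444 for Myd88 and 1127 to 2295 for Dif. In replicate 3 the best region anywhere in the gene ranked 446 for Pli and 1490 for Dif, and one overlapping the strongest Pli peak ranked 650. Distances to the nearest summit ran from 44104 to 83667 bp for Tl, 5517 to 5626 bp for tub, 6024 to 6095 bp for pll and 0 to 6637 bp for dl. TGATAA was found at 4 summits with windows of 200 bp either side (27.6% of all such windows) and at 3 with the whole region (26.2%). CAGCTG was found at 4 with either (21% and 19.3% of all windows). In the report each was at 1 summit (16% and 9.42% of all windows), with shorter windows. No paired analysis was possible because there is 1 group. Depth is unknown, so weak regions could not be told from missing ones.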

Other observations

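Regions at the promoter of pll were present in both replicate lists but in no part of the pooled list, at ranks 2779 and 4883. Such a loss was uncommon at this strength. Of the 2779 replicate 2 regions ranked at or above that of pll, 83 (2.99%) overlapped no pooled region, and of the 4883 replicate 3 regions, 155 (3.17%). All 2133 IDR peaks are regions of the pooled list. The cause was not tested.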
